A study of Mus musculus with 2 samples.

Results

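The 8 genes described here encode the constant parts of mouse antibodies and 2 proteins that help to assemble them. They were taken by symbol from the 31053 genes counted in 2 single-cell RNA sequencing libraries of mouse lung, and all 8 were found in both: Igkc, Iglc1, Iglc2, Iglc3, Ighm, Ighd, Jchain and Mzb1. Mice carried a tamoxifen-inducible Cre driven by the NG2 promoter (NG2-CreERTM) and the Ai14 reporter, which makes the red protein tdTomato after Cre has acted. Every animal received tamoxifen at 2 mg per 30 g body weight and then rested for 7 days. The Normoxia library came from untreated mice of this kind, and the Hypoxia library from mice kept for 21 days at an inspired oxygen fraction of 10%. NG2, the product of Cspg4, sits on the surface of capillary pericytes and of part of the smooth muscle cells. The labels call the cells sorted for tdTomato and give no age or sex, whereas the paper speaks of adult male mice, of wild-type animals in the hypoxia experiment, and of whole-lung cells from which CD45+ (leukocyte) and CD326+ (epithelial) cells had been removed. With 1 library per group there was no spread between replicates to measure and nothing was tested, so the differences given are those of these 2 libraries. The intervals have 95% confidence and account for counting error alone.

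An antibody is built from heavy and light chains. Each B cell normally joins 1 heavy chain to 1 light chain class, kappa (constant part Igkc) or lambda (constant parts Iglc1, Iglc2 and Iglc3), and mouse antibodies are mostly kappa. Mature B cells that have not yet met antigen carry IgM (Ighm) and IgD (Ighd) on their surface, both spliced from the same long transcript. Plasma cells are the antibody factories that B cells become: they stop making IgD and most B cell surface proteins, enlarge the secretory pathway, and use the joining chain Jchain to link IgM into pentamers and IgA into dimers. Mzb1 is a chaperone of the endoplasmic reticulum found in B cells and plasma cells.

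The positions are those of GRCm38, the assembly of mm10. Igkc lies on chromosome 6 (70726435 to 70726966, plus strand), where the unnamed gene model Gm30211 overlaps it on the same strand. Ighm (113418558 to 113422730) and Ighd (113406604 to 113416324) are neighbours on chromosome 12, minus strand. Jchain lies on chromosome 5 (88519809 to 88527891, minus strand). The lambda genes lie on chromosome 16, minus strand, with Iglc1 at 19061618 to 19062071, Iglc3 at 19065230 to 19065681 and Iglc2 at 19198396 to 19200351. The last 90 coding bases of the 3 lambda genes are shown, because they are the coding bases nearest to the captured 3′ end and bear on how well the genes can be told apart. After the coding part the transcripts run on for 137 bases in Iglc1, 143 in Iglc2 and 138 in Iglc3. Capitals mark bases that differ from Iglc2 when the 3 stretches are laid side by side without gaps.
Iglc1: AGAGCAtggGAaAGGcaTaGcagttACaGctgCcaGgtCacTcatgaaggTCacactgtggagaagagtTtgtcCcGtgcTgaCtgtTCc
Iglc2: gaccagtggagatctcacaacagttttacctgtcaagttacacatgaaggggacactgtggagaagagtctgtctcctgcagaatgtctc
Iglc3: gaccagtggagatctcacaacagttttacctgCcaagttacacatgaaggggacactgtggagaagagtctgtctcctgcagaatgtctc
Iglc3 differed from Iglc2 at 1 of these 90 bases and Iglc1 at 29. Over the whole coding part Iglc2 and Iglc3 were 96.2% identical, with an unbroken shared run of 79 bases, and after the coding part they were 90.2% identical. Iglc1 was 73.4% identical to Iglc2 over the coding part. The split of reads between Iglc2 and Iglc3 is therefore uncertain, and the lambda genes are given together wherever light chain classes are compared.

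After filtering, 293 Normoxia cells with 1112485 UMIs (unique molecular identifiers, the tags by which single transcripts are counted) and 453 Hypoxia cells with 1592173 UMIs were left. Their median depths were 3135 and 2818 UMIs per cell. Cspg4 had a UMI in 1 and 2 of them, and Ptprc, the gene of the leukocyte protein CD45, in 57 and 126. Cells were clustered without any of the 394 immunoglobulin, Jchain and Mzb1 rows, so that the genes described here could not define the clusters. Clusters 4 and 14 were B cell-like, with all 10 of 10 B cell markers above the thresholds. In Normoxia 31 cells (10.6%, 7.30 to 14.7%) fell into them, and in Hypoxia 54 cells (11.9%, 9.08 to 15.3%). Hypoxia B cell-like cells were shallower, with a median of 1862 UMIs against 4114, and cluster 14 held 14 cells, all from Hypoxia. For this reason counts per cell and CPM (the gene's share of all UMIs of the same cells, scaled to 1e+06) are given side by side. Of the barcodes, 2 occurred in both libraries.

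The 8 genes made up 2203 UMIs, or 0.198% of all UMIs, in Normoxia and 12824 UMIs, or 0.805%, in Hypoxia. Igkc had 1135 UMIs in Normoxia and 9726 in Hypoxia, Ighm 468 and 1424, Ighd 21 and 121, and Jchain 0 and 873. Mzb1 had 81 and 143 UMIs. The lambda genes had 76 and 88 UMIs for Iglc1, 308 and 308 for Iglc2, and 114 and 141 for Iglc3. Of the 8 genes, 4 (Igkc, Ighm, Ighd and Jchain) were at least 2-fold higher in Hypoxia by CPM, against 6.21% of the 9813 genes that reached 20 UMIs in the 2 libraries together, and 0 were at least 2-fold lower, against 8.13%. The median log2 ratio was 0.70 over the 8 genes and 0.040 over all 9813. Without 2 Hypoxia cells described next, 1 gene (Ighd) was at least 2-fold higher and 1 (Mzb1) at least 2-fold lower, of 7 that still had 20 UMIs, against 6.44% and 8.01% of all genes, and the median of the 7 was -0.45.

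**Figure D1:**
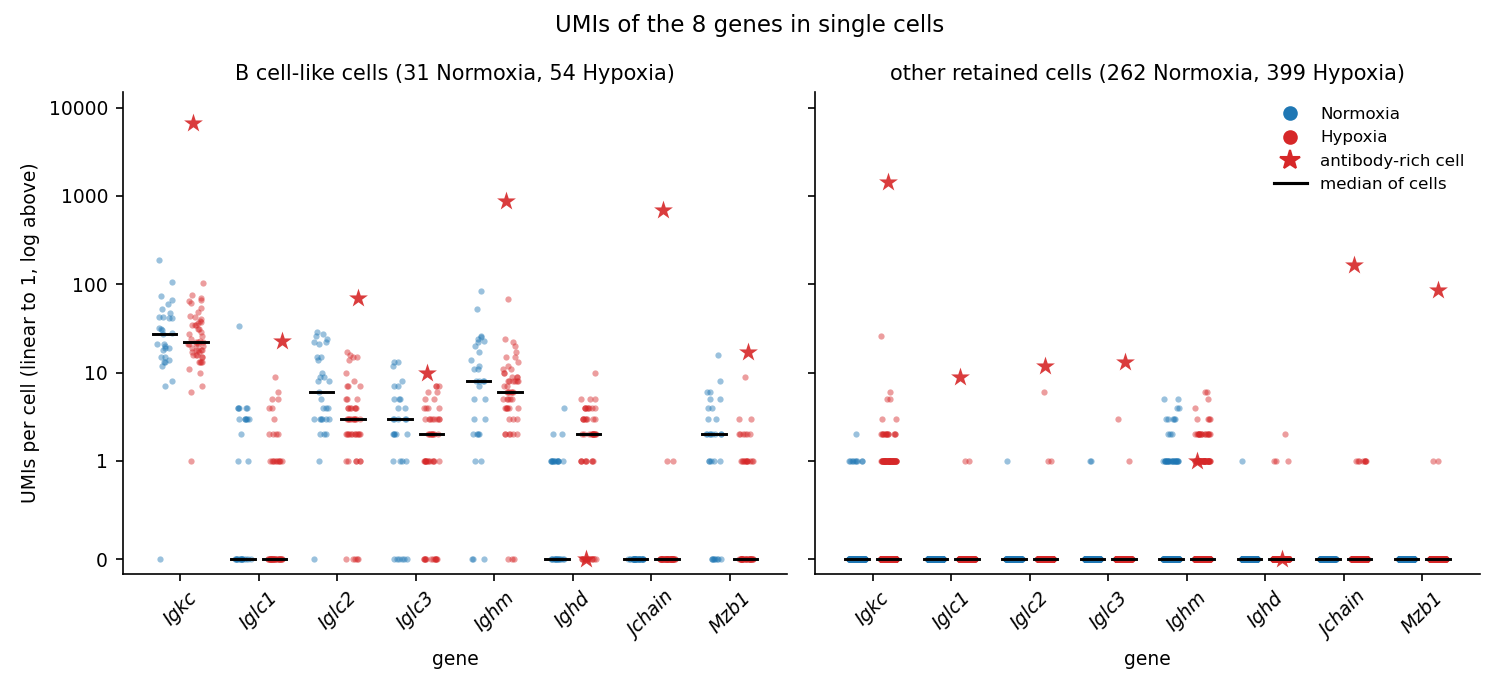
UMIs of each of the 8 genes (x axis) in single cells (points; y axis, linear up to 1 UMI and logarithmic above) of the Normoxia (blue) and Hypoxia (red) libraries, for B cell-like cells on the left and all other retained cells on the right. Bars are medians over cells, and stars mark the 2 antibody-rich Hypoxia cells, which have the highest Igkc counts of all cells, 6633 and 1422 UMIs, and the highest Jchain counts, 697 and 166 UMIs.

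Most of the Hypoxia UMIs came from 2 cells, called antibody-rich here because each held more than 1000 UMIs of the 8 genes. The next highest Hypoxia cell held 191 and the highest Normoxia cell 266. The first antibody-rich cell had 6633 UMIs of Igkc, 873 of Ighm, 697 of Jchain, 17 of Mzb1 and 0 of Ighd among its 12272 UMIs. The 8 genes made up 67.8% of its UMIs. The second had 1422 UMIs of Igkc, 166 of Jchain, 85 of Mzb1, 1 of Ighm and 0 of Ighd among 9038 UMIs, and 281 UMIs of Igha, the heavy chain of IgA. One cell thus carried an IgM heavy chain with kappa, and the other an IgA heavy chain with kappa. Together they held 82.8% of the Igkc, 61.4% of the Ighm, 98.9% of the Jchain, 71.3% of the Mzb1 and 96.2% of the Igha UMIs of the Hypoxia library. They held 0 of its 121 Ighd UMIs and 26.3% of its Iglc2 UMIs.

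Both cells were rich in genes of the plasma cell programme, none of which was used to find them. The cell with Ighm had UMIs of 11 of 12 plasma cell markers, among them Sdc1 (the surface proteoglycan CD138, 6 UMIs), Tnfrsf17 (the survival receptor BCMA, 4 UMIs) and Xbp1 (the transcription factor of the secretory programme, 5 UMIs). Prdm1, the repressor that ends the B cell programme, was the marker without a UMI. The cell with Igha had 9 of the 12, with 8 UMIs of Xbp1, 2 of Sdc1 and 2 of Tnfrsf17, and lacked Prdm1, Irf4 and Slamf7. All 16 of 16 genes of antibody folding and secretion were detected in each cell, 107 UMIs in the first and 194 in the second, and 15 and 16 of them were above their CPM in the other 84 B cell-like cells. Examples were Hsp90b1 (the chaperone GRP94, 12 and 37 UMIs), Ssr4 (a translocon subunit, 20 and 18 UMIs) and Sec11c (a signal peptidase subunit, 12 and 24 UMIs). This list shares genes with the plasma cell markers, Sec11c among them, so the counts of the lists overlap. None of the 6 transcription factors that B cells lose when they become plasma cells, such as Pax5 and Ebf1, had a UMI in either cell. Ebf1 had a UMI in 79 of the other 84 B cell-like cells, but Pax5 in 30 and Ciita in 20. The absence of the sparser factors from a single cell therefore says little. Of 10 B cell markers, Cd79a, Cd79b and Ly6d were present in both, with Cd79a at 7 and 6 UMIs. In the other B cell-like cells the median number of plasma cell markers was 1 in each library, and the highest was 4 in Normoxia and 3 in Hypoxia. Over all retained cells but the 2 antibody-rich ones the median was also 1, and the highest was 5 in Normoxia and 6, in 2 cells, in Hypoxia.

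The 2 cells fell into different clusters. The cell with Ighm lay in B cell-like cluster 4 and had a UMI of 0 of 13 T or NK cell markers. The cell with Igha lay in the T or NK cell-like cluster 2 and had UMIs of 8 of 13 T or NK cell markers, including Trbc2 (7), Cd8a (6), Cd3g (5) and Trac (4). Scrublet, which looks for droplets with 2 cells, marked neither. Whether the T cell and plasma cell UMIs of this barcode came from 1 cell was not tested.

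**Figure D2:**
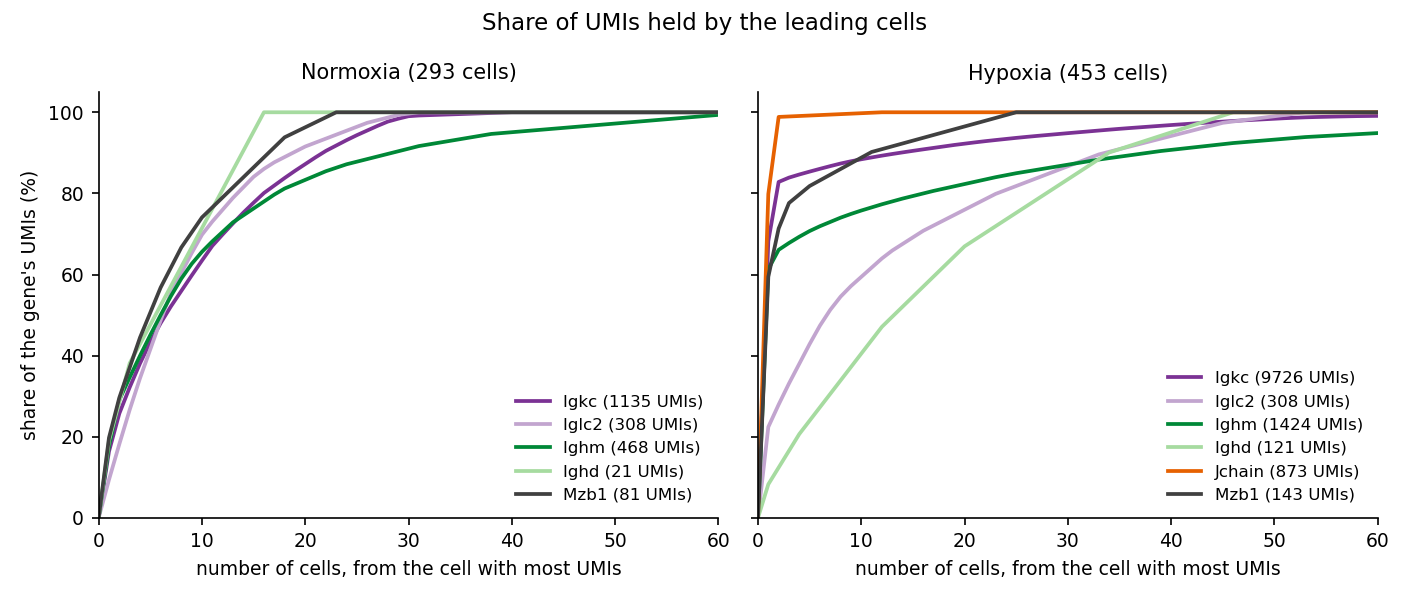
Share of a gene's UMIs (y axis, %) held by the leading cells of each library, added up from the cell with the most UMIs (x axis, number of cells); each line is 1 gene, with its UMIs in the legend, and Jchain had 0 UMIs in Normoxia. In Hypoxia the lines of Igkc, Jchain, Mzb1 and Ighm jump within 1 or 2 cells, while Ighd needed 14 cells for the first 50% of its UMIs.

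The genes differed in how far they were concentrated in few cells. The leading cell was taken for each gene separately and was not the same cell for all genes. In Hypoxia the leading cell of the gene held 68.2% of the Igkc, 61.3% of the Ighm, 79.8% of the Jchain and 59.4% of the Mzb1 UMIs. For the other genes the share was 22.4% of Iglc2, 26.1% of Iglc1, 9.22% of Iglc3 and 8.26% of Ighd. The antibody-rich cell with Igha led Mzb1 and Iglc3. Neither antibody-rich cell led Ighd, and the cell with Ighm led the remaining genes. In Normoxia the leading cell held 16.4% of Igkc, 17.7% of Ighm and 19.8% of Mzb1, and 44.7% of Iglc1. Without the 2 antibody-rich cells the leading Hypoxia cell held 6.22% of Igkc and 12.4% of Ighm, and 16 cells were needed for 50% of either gene, against 7 and 6 cells in Normoxia.

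Over all retained cells the level of Igkc was 1020 CPM (962 to 1081) in Normoxia and 6109 CPM (5988 to 6231) in Hypoxia, a log2 ratio of 2.58 (2.49 to 2.67). Without the 2 cells the Hypoxia level was 1064 CPM (1013 to 1116) and the log2 ratio 0.060 (-0.049 to 0.17). Ighm was at 421 CPM (383 to 461) and 894 CPM (849 to 942), a log2 ratio of 1.09 (0.94 to 1.24), and without the 2 cells this turned to -0.26 (-0.45 to -0.084). Jchain had 0 UMIs in 293 Normoxia cells, where a count of 0 allows up to 3 UMIs, and was 203-fold above this floor in Hypoxia. The lower limit of its log2 ratio was 7.37. Without the 2 cells 10 Jchain UMIs in 10 cells remained in Hypoxia, 2.36-fold above the floor, and the lower limit was 0.67. Mzb1 had a log2 ratio of 0.30 (-0.10 to 0.71), and -1.48 (-2.06 to -0.92) without the 2 cells. Ighd did not move with them: its log2 ratio was 2.01 (1.33 to 2.75) with and 2.03 (1.35 to 2.77) without. The lambda genes had log2 ratios of -0.31 (-0.77 to 0.16) for Iglc1, -0.52 (-0.75 to -0.28) for Iglc2 and -0.21 (-0.58 to 0.16) for Iglc3, and -0.94, -0.94 and -0.45 without the 2 cells.

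**Figure D3:**
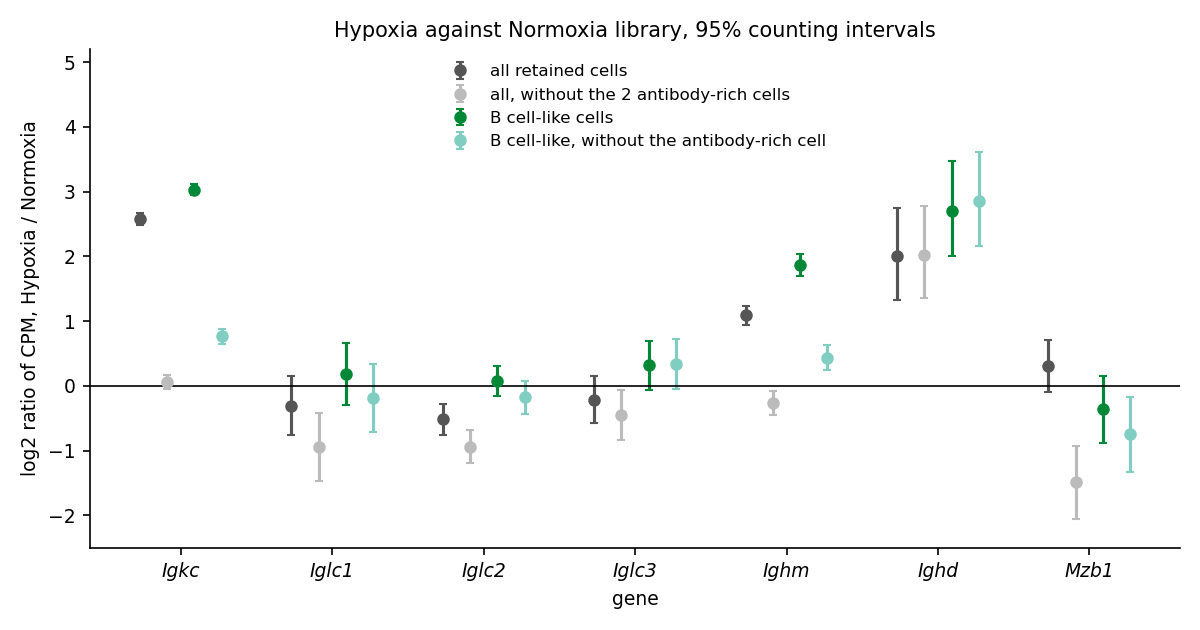
Log2 ratio of CPM, Hypoxia over Normoxia (y axis), for 7 genes (x axis) in all retained cells (dark grey), the same without the 2 antibody-rich cells (light grey), B cell-like cells (green) and the same without the antibody-rich cell among them (pale green); bars are 95% counting intervals. Jchain is left out because Normoxia had 0 UMIs. Ighd lies between 2.01 and 2.85 in all 4 sets, whereas Igkc falls from 2.58 to 0.060 over all cells and from 3.03 to 0.77 in B cell-like cells.

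Among B cell-like cells the antibody-rich cell with Ighm was left out to describe the other 31 Normoxia and 53 Hypoxia cells. Igkc was detected in 30 of 31 and 53 of 53 of them. The lowest, median and highest cells had 0, 27 and 186 Igkc UMIs in Normoxia and 1, 22 and 104 in Hypoxia, so the 2 ranges overlapped. Scaled by depth the level was 7659 CPM (7218 to 8120) in Normoxia and 13021 CPM (12378 to 13688) in Hypoxia, a log2 ratio of 0.77 (0.65 to 0.88). Hypoxia cells had fewer Igkc UMIs per cell (a mean of 29.0 against 36.3) but a larger share of their shallower total. After each cell was thinned to 1000 UMIs the median was 6 Igkc UMIs in 31 Normoxia cells and 12 in 52 Hypoxia cells, with 1 shallower cell left out.

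Ighm had 0, 8 and 83 UMIs in the lowest, median and highest Normoxia cells and 0, 6 and 68 in Hypoxia. Its level was 2767 CPM (2504 to 3049) and 3750 CPM (3409 to 4117), a log2 ratio of 0.44 (0.24 to 0.64), pooled over cells that fell into 3 finer clusters. Mzb1 had 0, 2 and 16 UMIs in Normoxia and 0, 0 and 9 in Hypoxia, and a log2 ratio of -0.74 (-1.33 to -0.17). With the antibody-rich cell with Ighm kept, the log2 ratio of Mzb1 was -0.36 (-0.88 to 0.15). With B cells taken as all cells with at least 2 of the 10 B cell markers it was 0.76 (0.36 to 1.18). That set also keeps the cell with Ighm, and it brings in cells of other clusters, among them the cell with Igha. Without the antibody-rich cell, Iglc2 (-0.17, -0.43 to 0.081), Iglc1 (-0.18, -0.71 to 0.34) and Iglc3 (0.34, -0.050 to 0.73) had pooled intervals that held 0. Jchain had 0 UMIs in 31 Normoxia cells and 1 UMI in each of 2 Hypoxia cells. With the antibody-rich cell 4 of the 8 genes (Igkc, Ighm, Ighd and Jchain) were at least 2-fold higher and 0 lower in B cell-like cells, against 11.9% and 5.78% of 1384 genes. Without it 1 of 7 genes with 20 UMIs was at least 2-fold higher and 0 were lower, against 13.0% and 5.19% of 1350 genes.

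Ighd was that gene. It had 20 UMIs in 15 of 31 Normoxia cells, with at most 4 in a cell, and 116 UMIs in 42 of 53 Hypoxia cells, with at most 10. Although the Hypoxia cells were shallower, their median was 2 UMIs against 0. The level was 136 CPM (83.3 to 211) and 982 CPM (812 to 1178), a log2 ratio of 2.85 (2.16 to 3.61). After thinning to 1000 UMIs, an Ighd UMI was left in 16.1% (5.45 to 33.7%) of the Normoxia cells, 5 of 31, and in 55.8% (41.3 to 69.5%) of the Hypoxia cells, 29 of 52. Outside the B cell-like cells the gene had 1 UMI in 262 Normoxia cells and 5 UMIs in 399 Hypoxia cells.

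Ighm and Ighd were then compared within the same cells. Ighd made up 4.69% (2.89 to 7.16%) of the Ighm and Ighd UMIs of Normoxia and 20.8% (17.5 to 24.4%) of those of Hypoxia B cell-like cells. Both genes had a UMI in 15 of 31 Normoxia and 40 of 53 Hypoxia cells, and Ighm without Ighd was seen in 13 and 10 cells. More Ighd than Ighm UMIs were found in 1 and 7 cells. Membrane and secreted forms of Ighm share 1 row of the count table and were not separated.

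B cell-like cells were not of 1 kind. At a finer resolution they formed cluster 8 (22 Normoxia and 13 Hypoxia cells, without the antibody-rich cell), cluster 9 (9 and 26 cells) and cluster 19 (14 Hypoxia cells). Cluster 8 was led by Zbtb32 and Plac8, cluster 9 by Fcmr, Ly6d and Fcer2a, and cluster 19 by Fcrla and Vpreb3. In cluster 8 the median depth was 6524 UMIs in Normoxia and 1813 in Hypoxia, and the 10 and 36 Ighd UMIs gave a log2 ratio of 3.78 (2.74 to 4.95). Ighd was 2.68% (1.29 to 4.88%) of Ighm and Ighd UMIs in Normoxia and 31.0% (22.8 to 40.3%) in Hypoxia. In cluster 9, where depth was alike at 1985 and 1822 UMIs, the 10 and 46 Ighd UMIs gave a log2 ratio of 0.76 (-0.25 to 1.91) and made up 18.9% (9.44 to 32.0%) and 17.1% (12.8 to 22.1%). The Ighd difference between the libraries was larger than counting error in cluster 8 and was not detectable at this depth in cluster 9. The 14 Hypoxia cells of cluster 19 had 19.5% (13.9 to 26.2%). The log2 ratio of Igkc was 0.28 (0.087 to 0.46) in cluster 8 and 0.79 (0.54 to 1.05) in cluster 9. That of Ighm was -0.25 (-0.62 to 0.099) in cluster 8 and 0.93 (0.46 to 1.44) in cluster 9, so its pooled difference was seen in cluster 9 but not in cluster 8. Iglc1 had 1.07 (0.24 to 1.85) in cluster 8 and -3.15 (-4.27 to -2.15) in cluster 9, which the pooled value averaged out. Both rested on single cells: without the leading Iglc1 cell of each library they became 0.49 (-0.55 to 1.44) and 0.39 (-1.93 to 3.66). Depth and the mix of clusters moved with the libraries, and their part in these differences was not tested further.

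Light chain classes were compared next. Igkc made up 69.5% (67.2 to 71.7%) of the kappa and lambda UMIs of Normoxia (1135 of Igkc and 498 of lambda) and 94.8% (94.3 to 95.2%) of those of Hypoxia (9726 and 537). Without the 2 antibody-rich cells the Hypoxia share was 80.6% (78.9 to 82.3%), with 401 lambda UMIs. Both antibody-rich cells were nearly pure in kappa, with lambda at 1.51% (1.24 to 1.84%) of light chain UMIs in the cell with Ighm and 2.34% (1.62 to 3.25%) in the cell with Igha. The lambda UMIs of the library without these cells split into 13.97% for Iglc1, 56.6% for Iglc2 and 29.4% for Iglc3, and those of Normoxia into 15.3%, 61.8% and 22.9%.

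**Figure D4:**
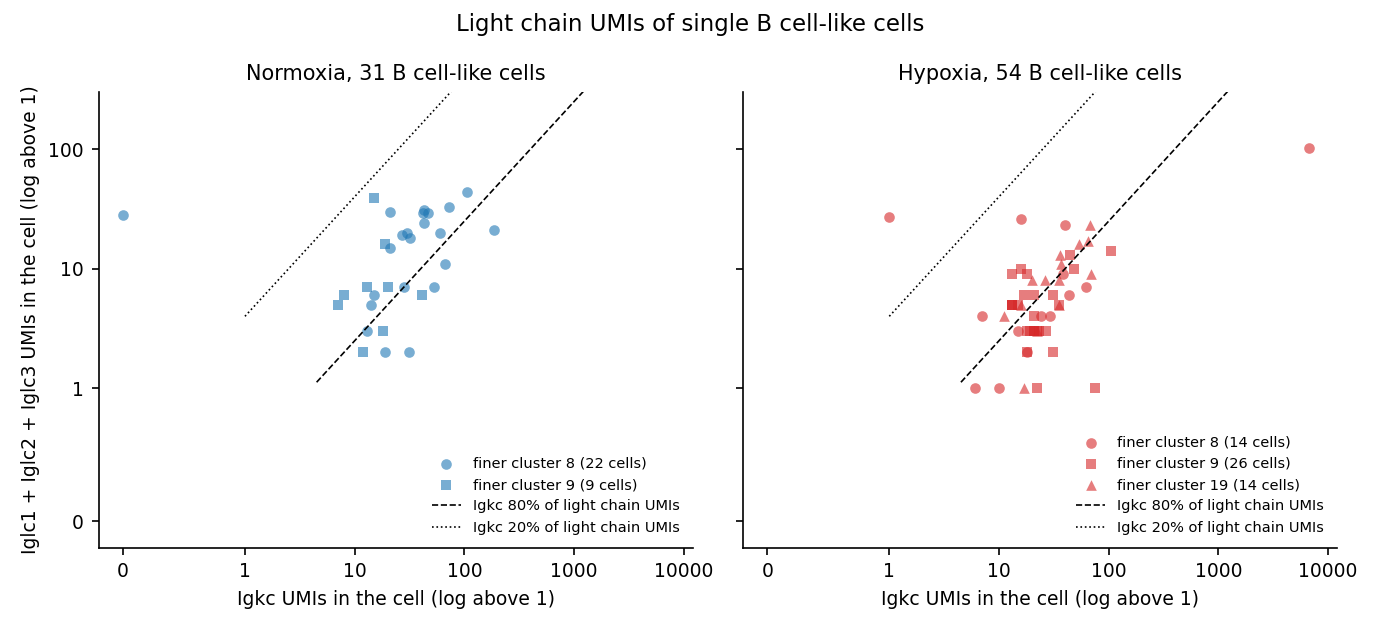
Igkc UMIs (x axis) and summed Iglc1, Iglc2 and Iglc3 UMIs (y axis) of each B cell-like cell in Normoxia (left) and Hypoxia (right), both axes linear up to 1 and logarithmic above, with symbols for the 3 finer clusters. The lines mark cells with 80% and 20% Igkc among light chain UMIs. In each library 1 cell lies above the upper line, and most Normoxia cells lie between the lines.

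Single B cell-like cells were rarely of 1 class only. UMIs of both classes were present in 30 of 31 Normoxia cells (96.8%) and in all 54 Hypoxia cells. With 80% of light chain UMIs as the limit, kappa-dominant cells were 10 of 31 (32.3%, 16.7 to 51.4%) in Normoxia and 31 of 54 (57.4%, 43.2 to 70.8%) in Hypoxia, 1 cell in each library was lambda-dominant, and 20 and 22 cells were mixed. The Normoxia lambda-dominant cell had 0 Igkc, 24 Iglc2, 3 Iglc1 and 1 Iglc3 UMIs. The Hypoxia one had 1 Igkc, 17 Iglc2, 9 Iglc1 and 1 Iglc3 UMIs. A further Normoxia cell stood out by Iglc1, with 34 Iglc1 UMIs beside 15 of Igkc and 5 of Iglc2, and it was the leading Iglc1 cell of that library. Some mixed cells had many UMIs of both classes, such as a Normoxia cell of 9673 UMIs with 106 of Igkc and 44 of lambda. The median cell had 68.9% Igkc in Normoxia and 83.6% in Hypoxia.

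The lambda UMIs in kappa-dominant cells amounted to 12.0% of their light chain UMIs in Normoxia and, without the antibody-rich cell, 11.9% in Hypoxia. All 10 of 10 and 30 of 30 of these cells had a lambda UMI. Outside the B cell-like clusters, Iglc2 had a UMI in 1 of 262 Normoxia and 4 of 399 Hypoxia cells, which is a share of cells and not of UMIs. The source of the lambda UMIs was not tested. In cluster 8 Igkc took 70.6% (68.1 to 73.0%) in Normoxia and 72.5% (68.0 to 76.7%) in Hypoxia, and in cluster 9 it took 62.7% (56.3 to 68.8%) and 83.8% (81.2 to 86.2%). These pooled shares leaned on few cells. In cluster 8, 2 of the 13 Hypoxia cells held 53 of the 117 lambda UMIs, and without them the Hypoxia share was 82.0% (77.6 to 85.9%), against 70.8% (68.0 to 73.4%) in Normoxia without its 2 leading lambda cells. The median cell of cluster 8 had 69.8% Igkc in Normoxia and 85.7% in Hypoxia, and 7 of 22 and 9 of 13 cells were kappa-dominant. In cluster 9 the Normoxia cell with 34 Iglc1 UMIs held 39 of the 91 lambda UMIs. Without it the Normoxia share was 72.6% (65.7 to 78.8%), and without the 2 leading lambda cells 76.8% (69.3 to 83.2%) against 83.6% (80.6 to 86.3%) in Hypoxia, where the intervals overlapped.

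Other heavy chains were sparse outside the antibody-rich cells. Igha had 15 UMIs in Normoxia, 14 of them in 1 B cell-like cell with 53 Igkc UMIs and 0 of Ighm and Ighd. Without the antibody-rich cells Hypoxia had 11 Igha UMIs in 9 cells. Of the other 5 heavy chain genes listed, for IgG and IgE, 3 had 0 UMIs in both libraries and the other 2 had at most 2 in either. Variable segments, which lie far from the captured end, had few UMIs, so that clones could not be followed. Of 160 Igkv rows 3 had a UMI in Normoxia and 5 in Hypoxia. These rows had 3 and 13 UMIs in all, of which 2 and 1 lay in B cell-like cells. Of 185 Ighv rows 0 and 3 had a UMI. Of 3 Iglv rows only Iglv1 had UMIs, 5 in Hypoxia B cell-like cells. The antibody-rich cell with Ighm held 4 of these 5 and no UMI of another variable segment.

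Cells outside the B cell-like clusters were examined for the same genes, since they should not make antibody. After thinning to 1000 UMIs, an Igkc UMI was left in 2.34% (0.865 to 5.03%) of such Normoxia cells, 6 of 256, and in 7.95% (5.39 to 11.2%) of Hypoxia cells, 29 of 365. Without thinning the shares were 3.82% and 19.8%. In thinned endothelial cell-like cells the shares were 2.68% (0.556 to 7.63%) in Normoxia, 3 of 112, and 6.67% (3.69 to 10.9%) in Hypoxia, 14 of 210. These intervals overlapped. Without thinning, 4 of 117 (3.42%) in Normoxia and 45 of 218 (20.6%) in Hypoxia had an Igkc UMI, at a median depth of 2650 and 2835 UMIs. Of the 83 Hypoxia UMIs, 26 lay in 1 cell with 21234 UMIs, 5 of 10 B cell markers and 10 of 11 endothelial markers. The level in endothelial cell-like cells was 11.1 and 106 CPM, far below that of B cell-like cells.

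**Figure D5:**
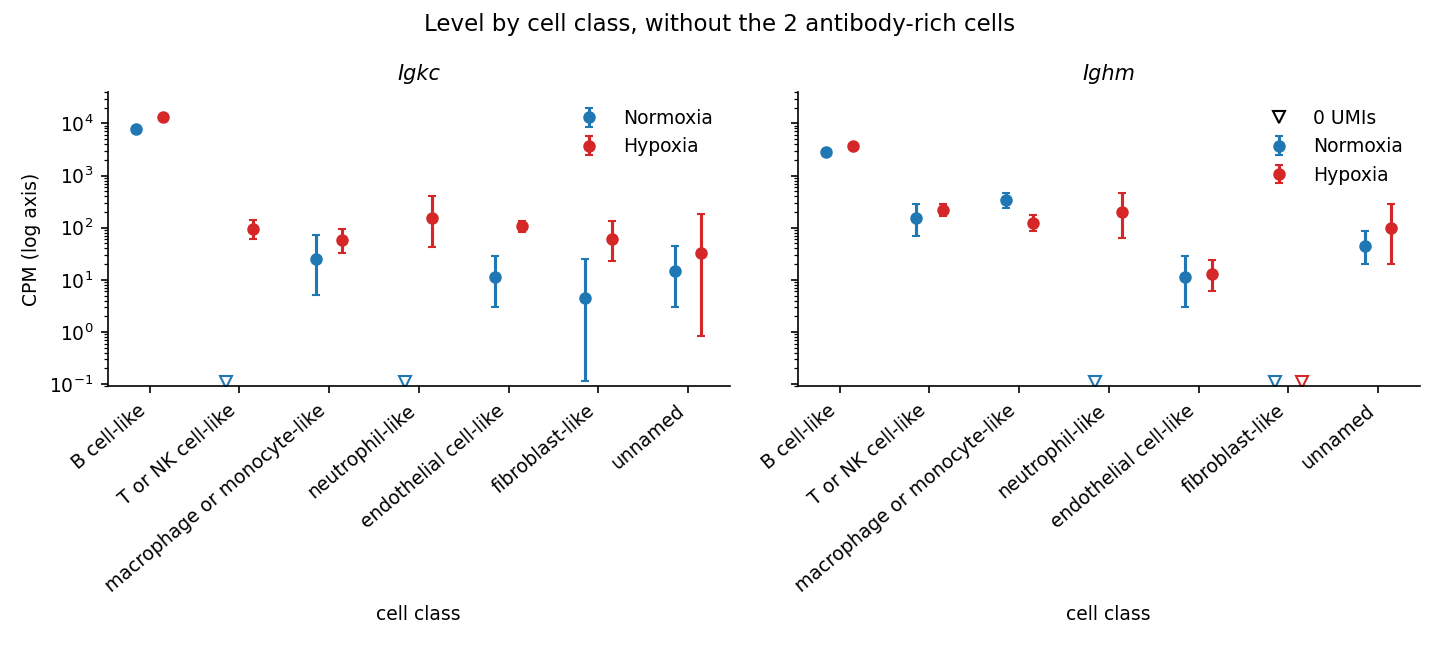
CPM of Igkc (left) and Ighm (right) on a log axis by cell class (x axis) in Normoxia (blue) and Hypoxia (red), without the 2 antibody-rich cells; bars are 95% Poisson intervals and triangles mark 0 UMIs. Igkc is 11.1 and 106 CPM in endothelial cell-like cells, and Ighm is 334 and 126 CPM in macrophage or monocyte-like cells but 11.1 and 12.8 CPM in endothelial cell-like cells.

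Ighm had another distribution over the classes than Igkc. In macrophage or monocyte-like cells Ighm had 40 UMIs in 17 of 28 Normoxia cells and 33 UMIs in 18 of 45 Hypoxia cells, where Igkc had 3 and 15 UMIs. In T or NK cell-like cells it had 9 UMIs in 7 of 13 and, without the antibody-rich cell, 56 UMIs in 35 of 75 cells, against 0 and 24 UMIs of Igkc. After thinning, Ighm was detected in 28.6% (13.2 to 48.7%) of Normoxia and 13.3% (5.05 to 26.8%) of Hypoxia macrophage or monocyte-like cells. In T or NK cell-like cells it was detected in 7.69% (0.195 to 36.0%), 1 of 13, in Normoxia and 28.0% (18.2 to 39.6%) in Hypoxia. In endothelial cell-like cells the shares were 1.79% (0.217 to 6.30%) in Normoxia and 0.476% (0.0121 to 2.62%) in Hypoxia. Within each library the endothelial interval did not overlap the macrophage or monocyte interval. Across libraries, the Normoxia endothelial interval did overlap the Hypoxia macrophage or monocyte interval. The T or NK interval lay above the endothelial one in Hypoxia, but in Normoxia, with 13 T or NK cell-like cells, the intervals overlapped. Fibroblast-like cells had 0 Ighm UMIs in 39 and 21 cells. At equal depth the Ighm share thus differed by more than counting error between endothelial and macrophage or monocyte-like cells in each library. The 3 Normoxia cells outside the B cell-like clusters with the most of these genes were macrophage or monocyte-like cells with 5, 5 and 4 Ighm UMIs and 0 Igkc UMIs.

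The genes also stood in different ratios in these cells. Per 100 Igkc UMIs, Hypoxia B cell-like cells without the antibody-rich cell had 28.8 Ighm and 0.130 Jchain UMIs. The antibody-rich cell with Ighm had 13.2 and 10.5, and the cell with Igha had 0.0703 and 11.7. Hypoxia endothelial cell-like cells without their leading cell, which had 57 Igkc, 4 Ighm and 7 Jchain UMIs, had 7.02 and 12.3. Hypoxia T or NK cell-like cells without the antibody-rich cell had 233 Ighm and 0 Jchain UMIs per 100 of Igkc. The ratios rest on few UMIs outside the B cell-like and antibody-rich cells, and the source of the UMIs was not tested.

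Genes that work with these chains were described from lists. Of 15 B cell receptor partners, 12 had 20 UMIs in the B cell-like cells without the antibody-rich cell, and 4 were at least 2-fold higher in Hypoxia and 0 lower, against 13.0% and 5.19% of the 1350 genes. Examples were Fcrla (log2 ratio 1.95, 0.83 to 3.22) and Fcer2a, the low-affinity IgE receptor CD23 (2.14, 1.15 to 3.25). Their median was 0.50, against 0.20 over all 1350 genes. Cd79a and Cd79b, which carry the signal of the receptor, had 0.47 (0.24 to 0.70) and 0.52 (0.26 to 0.78). Of 6 B cell transcription factors 4 were measured and 3 were at least 2-fold higher: Ebf1 (1.07, 0.74 to 1.41), Pax5 (1.03, 0.0095 to 2.10) and Ciita (2.08, 0.58 to 3.87). Of 10 plasma cell regulators 2 were measured and 0 passed 2-fold, and of 16 folding and secretion genes 7 were measured, 0 passed 2-fold and the median was -0.42. With the antibody-rich cell 3 of 10 measured folding and secretion genes were at least 2-fold higher, against 11.9% of all 1384 genes: Hsp90b1, Pdia4 and Spcs1. Over all retained cells 2 of 7 plasma cell regulators were at least 2-fold higher, against 6.21% of the 9813 genes. They were Sdc1 with 4 and 22 UMIs and Prdm1 with 5 and 16. Without the 2 antibody-rich cells Sdc1 had 4 and 14 UMIs and fell short of 20 UMIs. Of the 6 regulators then measured 1, Prdm1, was at least 2-fold higher, against 6.44% of all genes. Its log2 ratio was 1.18 (-0.33 to 2.98), so the interval held 0.

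The genes whose log-normalized level was most like that of Igkc over cells were Cd79a (Pearson's r of 0.92 in 293 Normoxia and 0.88 in 453 Hypoxia cells), Cd79b (0.93 and 0.83), Ly6d, Ms4a1 (the surface protein CD20) and H2-DMb2. For Ighm they were Cd79a (0.74 and 0.82), Cd79b, Ly6d, Ms4a1 and Siglecg. For Jchain the highest r was 0.26, for Txndc5 in Hypoxia, too weak to be read. Cells of 1 library share its depth and preparation, so these values describe the libraries only.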

How the data were processed

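The deposited values are UMI counts of each gene in each cell barcode, unnormalized, in 1 matrix per library. Per the file headers they came from Cell Ranger 3.1.0, and the submitters' processing notes name mm10 and Seurat. Each count is a number of distinct UMIs at the 3′ end, so amplification copies were collapsed and no length scaling was made. Reads that fit more than 1 gene equally well are commonly not counted, which touches Iglc2, Iglc3 and Igkc with Gm30211 (13 and 18 UMIs). The labels speak of replicates, but nothing says whether animals were pooled, and each group was taken as 1 library.

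The limits of the study's methods were used: 200 to 6000 genes per barcode and a mitochondrial share of at most 5%. Of the 373 Normoxia and 613 Hypoxia barcodes 80 and 160 were left out. The libraries were clustered jointly in scanpy 1.11.5 (10000 UMIs per cell, 2000 variable genes, 15 components, 15 neighbours, Leiden resolution 1.0, and 2.0 for the finer clusters). A marker counted for a cluster when detected in at least 25% of its cells with at least 2 times the clusters' median CPM. A cluster was named from at least 4 such markers, if no other class had as many or led its 10 leading genes. The minimum of 4 was chosen with the clusters already known. Doublets were kept; Scrublet marked 1 Normoxia and 2 Hypoxia cells. CPM is a gene's summed UMIs divided by all UMIs of the same cells and scaled to 1e+06, with exact Poisson intervals. Ratios have exact conditional binomial and shares Clopper-Pearson intervals. Cells are not replicates, so nothing was tested between groups. A count of 0 was taken to allow 3 counts, and folds against it use this floor for the whole group. On simulated counts of 9813 genes for Hypoxia against Normoxia over all retained cells, with 200 changed genes, 95.9% of intervals held the truth. These counts were drawn with counting error alone, so the check does not cover genes whose UMIs are clumped in few cells. Genes named were the 8 members, at most 4 of each list with values, those that make up a count of 5 or fewer, the 5 genes most alike by Pearson's r, and the 5 cells per library with the most member UMIs. The values of 1 gene of the lists are not reported here. The members and lists were chosen with earlier results of these data known. The lambda sequences and all positions come from the GRCm38 reference with GENCODE annotation, matched by gene identifier. Alternatives were other filters on cells, other resolutions, marker-defined B cells, other totals and weights, other light chain limits and other thinning depths. Those without the antibody-rich cells, and those without leading cells in the finer clusters, were chosen after seeing the data.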

Additional observations from a re-analysis of the deposited data

Results flagged for a closer look

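Igkc in the barcodes that the filters left out was picked up as a signal outside the main measurement. The 80 Normoxia barcodes held 140 Igkc UMIs, or 662 CPM (557 to 782), and the 160 Hypoxia barcodes 645 UMIs, or 1624 CPM (1501 to 1754), a log2 ratio of 1.29 (1.03 to 1.57). An Igkc UMI was present in 7 and 35 of these barcodes. At least 2 B cell markers were present in 7 and 21 of them, which held 140 and 628 of the UMIs. The most UMIs of the 8 genes in any of them were 102 in Normoxia and 111 in Hypoxia, so no further antibody-rich cell was among them.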

How the results depend on the processing

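No paired analysis was possible because there was 1 library per group and the labels carry no replicate numbers. In all, 38 results were recomputed with 172 values under alternatives, of which 126 stayed within the counting interval of the main value and 42 moved further. A log2 ratio changed sign in 18 of them. In 4 the main interval lay on 1 side of 0, and these are called reversed here, while in the other 14 it held 0. Where no value below shows it, the cause was not tested.

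The log2 ratio of Igkc over all retained cells, 2.58, was 2.36 without the mitochondrial maximum, 2.44 over all barcodes, 1.96 with equal weight per cell, 1.19 without the leading cell of each library and 0.060 without the 2 antibody-rich cells. In B cell-like cells, 3.03 became 2.70 without the mitochondrial maximum, 3.14 with a total that leaves out the immunoglobulin rows, 1.61 with equal weight, 0.95 without the leading cells and 0.77 without the antibody-rich cell. Ighm over all retained cells, 1.09, reversed to -0.0015 without the leading cells and to -0.26 without the antibody-rich cells. In B cell-like cells, 1.87 became 1.67 with marker-defined B cells, 0.96 with equal weight, 0.67 without the leading cells and 0.44 without the antibody-rich cell. Iglc2 over all retained cells, -0.52, reversed to 0.081 with equal weight per cell, and Iglc1 in finer cluster 9, -3.15, to 0.39 without the leading cells. The 14 other changes of sign were in Mzb1 and the lambda genes, such as Mzb1 over all retained cells, 0.30, which was -0.69 without the leading cells and -1.48 without the antibody-rich cells, or Iglc1, -0.31, which was 0.25 over all barcodes. Ighd stayed between 1.82 and 2.94 in both sets of cells under every alternative.

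The kappa share of Normoxia, 69.5%, was 66.5% without the leading cell. That of Hypoxia, 94.8%, was 93.4% over all barcodes, 89.6% with equal weight, 87.7% without the leading cell and 80.6% without the antibody-rich cells. With a limit of 90% the kappa-dominant share was 6.45% in Normoxia and 16.7% in Hypoxia. The share of other cells with an Igkc UMI was 0.382% in Normoxia when thinned to 500 UMIs, and in Hypoxia 13.8% when thinned to 2000 UMIs and 19.8% without thinning. The leading Hypoxia cell held 63.96% of Igkc over all barcodes and 63.96% without the mitochondrial maximum, and 81.2% within B cell-like cells. The number of genes past 2-fold, 1407, was 690 with at least 50 UMIs, where fewer genes enter. The share of B cell-like cells stayed within its interval under all 4 alternatives in each library. Depth limits Jchain, Igha and every ratio outside B cell-like cells, each resting on few UMIs.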
